A study of Sus scrofa with 15 samples.

Results

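The genes of ion channels and of the sodium potassium pump were examined in pig kidney 72 hours after warm ischemia. Members were all genes with a symbol that began with KCN, SCN, CACN, CLCN, TRPC, TRPM, TRPV, ATP1A, ATP1B or FXYD, and 32 of the 3020 genes that could be named on the array met this rule. They were 15 potassium channel genes, 6 transient receptor potential (TRP) channel genes, 3 calcium channel genes, 3 genes of the pump, 2 sodium channel genes, 2 FXYD genes and 1 chloride channel gene. No TRPM gene and no gene of the ATP-sensitive potassium channel (KCNJ8, KCNJ11) was among the named genes, and KCNJ1, KCNJ10, KCNJ15, KCNJ16, SCNN1B, TRPV5, KCNE1, KCNQ1 and KCNK5 were not analysed here.

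The animals were 15 female Yorkshire pigs of the same age, with 5 pigs and 5 arrays in each of 3 groups. Every pig had its left kidney removed first and, after a period of compensation, its right renal artery and vein clamped together, so all groups carried a single kidney and all had ischemia. Control pigs had 90 minutes of warm ischemia without preconditioning. rIPCe pigs had remote ischemic preconditioning, in which the right external iliac artery was clamped and released in cycles, directly before 90 minutes of ischemia, and rIPCl pigs had the same preconditioning 24 hours before ischemia. The 3 groups hold no pig without ischemia. Potassium chloride was injected into every pig before the tissue was taken, and whole renal tissue was used, in which fewer cells of a type and less RNA per cell cannot be told apart. The comparisons asked how preconditioning in the early and in the late window changed the postischemic kidney.

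Renal epithelial cells move salt with the sodium potassium pump, which sits in the basolateral membrane and exchanges sodium for potassium at the cost of ATP. The pump has an alpha subunit that carries out transport, a beta subunit that brings it to the membrane, and small FXYD proteins that tune it. Its gradient drives the transport of other solutes, and channels in the apical and basolateral membranes return potassium and let sodium, chloride and calcium through. In the collecting duct the epithelial sodium channel (ENaC) takes up the last sodium and potassium channels secrete potassium, while vessels of the kidney use other potassium, calcium and TRP channels to set their tone.

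Values are log2 signals after quantile normalization over the 15 arrays, with the brightest probe standing for a gene. Differences are between group means on that scale, so that 1 is a fold change of 2. A gene was counted as altered at a fold change of at least 2 with an unadjusted p under 0.05, and as called when the limma p, adjusted over all 43603 probes with the Benjamini-Hochberg method, was under 0.05. Signals of different probes cannot be set against each other as amounts of RNA. A spot was well above background when the scanner software marked it so, which held for 62.2% to 69.5% of spots on control arrays, 67.4% to 73.9% on rIPCe arrays and 71.8% to 74.2% on rIPCl arrays. The arrays came from 4 slides. Slide 1 held control 1 to 4, slide 2 held control 5 and rIPCe 1 to 3, slide 3 held rIPCe 4, rIPCe 5 and rIPCl 1, and slide 4 held rIPCl 2 to 5, so that slide and group could be separated only through slides 2 and 3. Group differences with slide as a fixed block therefore rest on control 5 as the only control array and rIPCl 1 as the only rIPCl array. The arrays of slides 1 and 4 do not enter these differences. Kidney markers were present, with a mean log2 signal of 12.51 to 14.26 over 8 proximal tubule genes and of 11.48 to 12.47 over 3 genes of the thick ascending limb.

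Of the 32 genes, 22 were well above background on all 15 arrays, 6 on some and 4 on none. Both FXYD genes, both ENaC genes, the chloride channel gene and all 3 calcium channel genes were measured on every array. Among the potassium channel genes, 10 of 15 were. The TRP channels had the lowest share, with TRPC1 and TRPV4 measured on every array and TRPC4, TRPC5 and TRPC7 on none. Over all named genes 79% were well above background on every array.

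Of the 32 genes, 3 were altered or called in the preconditioned kidneys, KCNA2, KCNH6 and TRPC4, and of these KCNA2 alone was well above background on every array. In rIPCl relative to the control group, 0 members were altered upward (6.89% of all named genes were) and 2 were altered downward, KCNA2 and KCNH6 (2.81% of all named genes were). After adjustment limma called 1 member, TRPC4 (9.5% of all named genes were called), and 7 members had an unadjusted p under 0.05, 5 lower and 2 higher, against 35.1% of all named genes. The median difference over the members was 0.03, with 17 higher and 15 lower, beside -0.02 over all named genes. In rIPCe, 0 members were altered upward (1.56% of named genes) and 2 downward, again KCNA2 and KCNH6 (1.13% of named genes). Limma called 0 members and 0% of named genes in rIPCe, while 5 members had an unadjusted p under 0.05, against 16.1% of named genes. The median difference was -0.15, beside -0.03 over all named genes. The comparisons share their 5 control arrays. Of the 22 members well above background on every array, 13 were higher in rIPCl (59.1%, beside 47.7% of the 2386 named genes so measured) and 10 in rIPCe (45.5%, beside 45%). The median difference over these 22 members was 0.12 in rIPCl and -0.04 in rIPCe. Over the named genes so measured it was -0.02 and -0.04. Among the 22 members were 10 potassium channel genes, of which 7 were higher in rIPCl and 5 in rIPCe, and 3 calcium channel genes, of which 3 and 2 were.

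**Figure D1:**
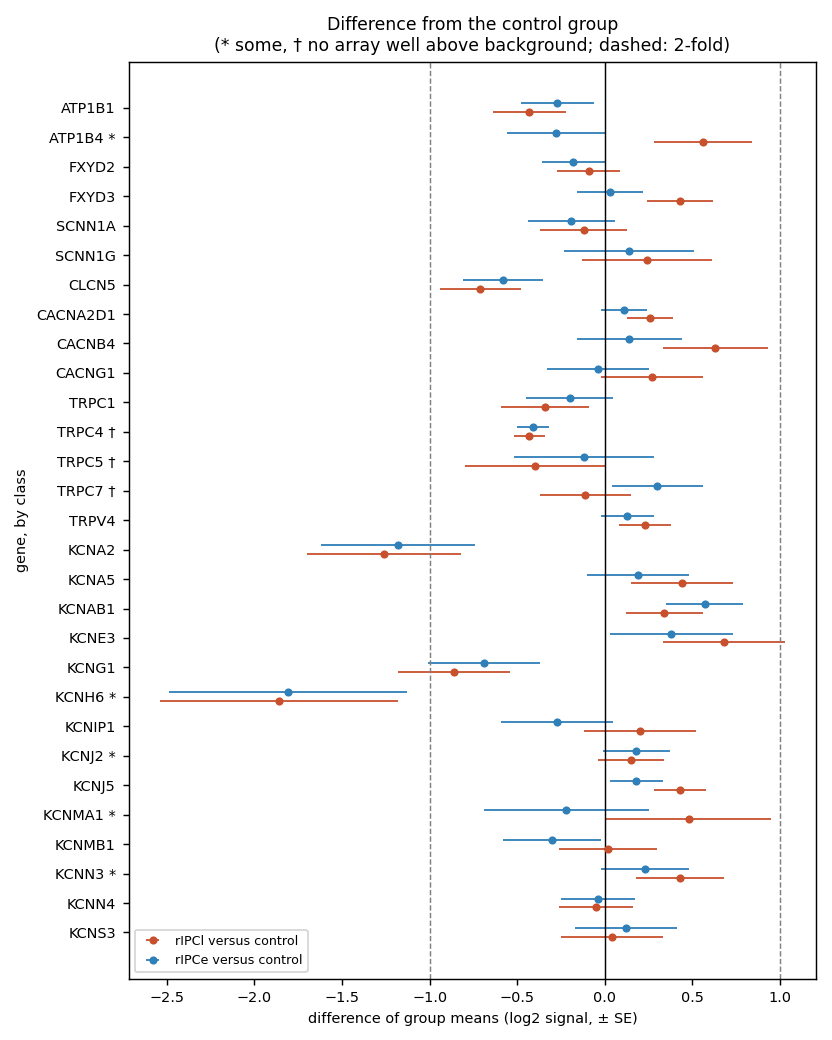
Difference of group means from the control group on the log2 signal scale (horizontal axis, points with ± SE from limma, n = 5 arrays per group) for 29 of the 32 genes in order of class (vertical axis). Red points are rIPCl and blue points rIPCe, and dashed lines mark a fold change of 2. Only KCNA2 and KCNH6 lie beyond the dashed lines, and stars and daggers mark genes well above background on some or no arrays, whose signal differences are not measured fold changes.

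ATP1B1, the beta subunit, read 16.53, 17.03, 16.86, 16.85 and 16.98 on control arrays 1 to 5. In rIPCe its values were 16.42, 15.77, 16.87, 17 and 16.87, and in rIPCl they were 16.61, 16.19, 16.56, 16.15 and 16.58. Control values were tightly grouped except for control 1, and 2 of the 5 rIPCl arrays lay below all of them. The difference of -0.43 in rIPCl had an exact permutation p of 0.0317 (two-sided) but a limma adjusted p of 0.202, and its second probe differed by -0.30. In rIPCe the difference was -0.27 (limma adjusted p = 0.583), with rIPCe 2 far below the other arrays. A model with slide as a block gave -0.95 in rIPCl and -0.63 in rIPCe.

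FXYD2, the gamma subunit that modulates the pump in the tubule, had control signals of 16.1, 16.7, 16.58, 16.47 and 16.27. Its rIPCe signals were 15.73, 16.12, 16.27, 16.44 and 16.65 and its rIPCl signals 16.63, 16.25, 15.95, 16.53 and 16.31, and all 3 groups covered much the same range. It differed by -0.09 in rIPCl (limma 95% interval -0.48 to 0.30) and by -0.18 in rIPCe (limma 95% interval -0.57 to 0.21). For ATP1B1 and FXYD2 the intervals in both comparisons therefore lay inside a 2-fold change in either direction. Both were chosen as pump genes of the nephron, and neither was altered or called.

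Of the other members of these classes, ATP1B4, a beta subunit relative known from muscle, was well above background on 0 control arrays, 1 rIPCe array and 4 rIPCl arrays. These counts do not compare levels, because the lowest signals well above background were 3.74 to 4.71 on control arrays but 3.18 to 3.5 on rIPCl arrays. Those signals are not cutoffs either, since ATP1B4 on control 3 lay above the 3.92 of its array and was not marked. Control 2, control 3 and control 5 (3.98, 4.22 and 3.95) lay above rIPCl 1 and rIPCl 5 (3.78 and 3.94). The remaining rIPCl arrays (4.34, 4.37 and 4.85) lay above every control array. ATP1B4 was the single member with an unadjusted p under 0.05 between the preconditioned groups. Its signal was higher by 0.84 in rIPCl than in rIPCe (limma unadjusted p = 0.00968, adjusted p = 0.979). FXYD3, another FXYD protein, differed by 0.43 in rIPCl on its brighter probe (limma adjusted p = 0.167). Its dimmer probe was well above background on 0 control, 2 rIPCe and 5 rIPCl arrays. The values of that probe were 1.46 to 3.3 in the control group and 3.43 to 4.86 in rIPCl, and no fold change is given because the lowest signals well above background on control arrays were 3.74 to 4.71. The mean of both FXYD3 probes, which includes the dimmer one, was called in rIPCl (limma adjusted p = 0.0377). ATP1B4 and the dimmer FXYD3 probe were singled out after their values were seen.

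**Figure D2:**
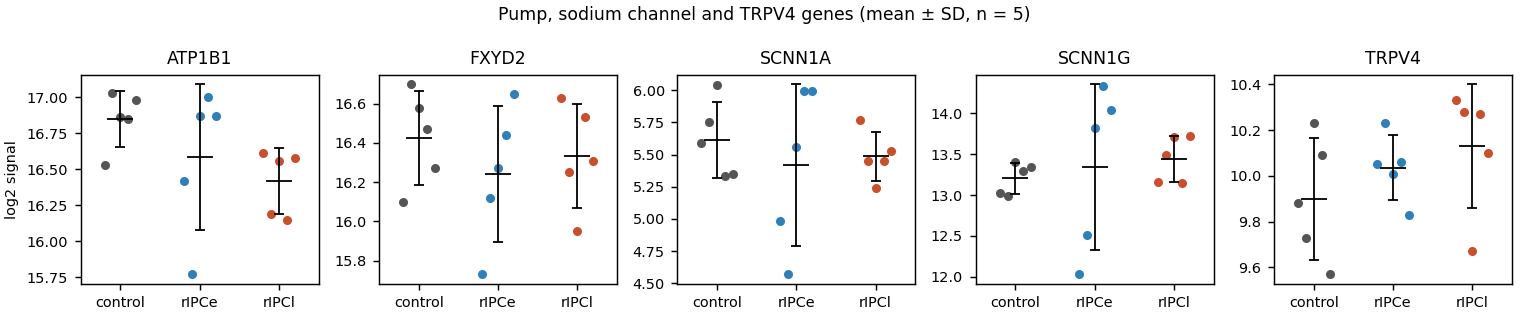
Log2 signal (vertical axis) of pump genes ATP1B1 and FXYD2, ENaC genes SCNN1A and SCNN1G, and TRPV4, by group (horizontal axis), with 1 point per array and bars for the mean ± SD (n = 5). Groups overlap for all 5 genes, and the rIPCe points of SCNN1G run from 12.03 to 14.33 while its control points run from 12.99 to 13.4.

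SCNN1G, the gamma subunit of ENaC, was at 13.02, 12.99, 13.4, 13.29 and 13.34 in the control group. The rIPCe arrays gave 12.03, 12.51, 13.82, 14.33 and 14.04 and the rIPCl arrays 13.16, 13.49, 13.71, 13.15 and 13.72. Control and rIPCl pigs were alike in spread, with SDs of 0.19 and 0.28, whereas rIPCe pigs had an SD of 1.01 and held both the lowest 2 and the highest 3 values of all 15. The mean difference was 0.24 in rIPCl (limma 95% interval -0.55 to 1.03) and 0.14 in rIPCe (limma 95% interval -0.65 to 0.93). Adding slide to the model as a block turned it to -1.58 and -0.55 (limma adjusted p = 0.419 and 0.804).

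SCNN1A, the alpha subunit of ENaC, had control values of 5.59, 5.75, 6.04, 5.33 and 5.35. Its values were 4.98, 4.57, 5.56, 5.99 and 5.99 in rIPCe and 5.77, 5.45, 5.24, 5.45 and 5.53 in rIPCl. As with the gamma subunit, rIPCe 1 and rIPCe 2 were the lowest of all arrays, and the SD of 0.63 in rIPCe was above the 0.30 of the control group and the 0.19 of rIPCl. The difference was -0.12 in rIPCl and -0.19 in rIPCe, with limma adjusted p of 0.792 and 0.763. Of the 22 members measured on every array, rIPCe 2 had the lowest value in 4 (ATP1B1, SCNN1A and TRPC1 among them) and rIPCe 1 in 3 (FXYD2, KCNG1 and SCNN1G), while rIPCe 4 and rIPCe 5 were each lowest in 4 others. Markers of the distal convoluted and connecting tubule, where ENaC is also found, had a mean over 3 genes of 8.16 to 11.95 on rIPCe arrays, 10.27 to 10.91 on control arrays and 9.54 to 12.76 on rIPCl arrays. Principal cell markers had a mean over 5 genes of 9.8 to 11.25, 10.52 to 11.43 and 10.43 to 11.12 in that order. Their part in the ENaC values was not tested.

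CLCN5 encodes a chloride and proton exchanger in endosomes of the proximal tubule that is needed to take up filtered protein. Control arrays gave 7.72, 8.49, 8.37, 8.36 and 7.67, rIPCe arrays 7.63, 7.99, 7.3, 7.12 and 7.68, and rIPCl arrays 7.65, 7.48, 6.69, 7.54 and 7.7. Only control 2 to 4 stood above the rest, and 4 of 5 rIPCl arrays lay below all control arrays. The difference was -0.71 ± 0.23 (SE) in rIPCl, with an exact permutation p of 0.0159 (two-sided) and a limma adjusted p of 0.0777. In rIPCe it was -0.58 ± 0.23 (SE) with a limma adjusted p of 0.294. A second probe for CLCN5 differed by only -0.19 in rIPCl and -0.15 in rIPCe, and with slide as a block the brighter probe differed by 0.22 and -0.03. Markers of the proximal tubule had a median difference of -0.59 over 8 genes in rIPCl and of -0.06 in rIPCe, and their part in the CLCN5 values was not tested.

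KCNA2, a voltage-gated potassium channel best known from neurons, was the member measured on every array with the largest difference. Control arrays gave 8.36, 9.92, 8.3, 8.96 and 8, rIPCe arrays 8.5, 8.18, 7.22, 7.09 and 6.64, and rIPCl arrays 6.49, 7.98, 7.14, 8.12 and 7.54. In rIPCl 4 of 5 arrays lay below every control array, and in rIPCe 3 of 5 did. It was lower by 2.39-fold in rIPCl (difference -1.26 ± 0.44 SE, limma unadjusted p = 0.0124, adjusted p = 0.0902, exact permutation p = 0.0159) and by 2.27-fold in rIPCe (difference -1.18 ± 0.44 SE, limma unadjusted p = 0.0172, adjusted p = 0.262, exact permutation p = 0.0635). Control 2 carried part of this, and without it the differences were -0.95 and -0.88 and KCNA2 was not altered in either group, nor was it in rIPCe without rIPCe 5. All 3 arrays of slide 3 lay below all 4 arrays of slide 2. The slide block gave -0.41 in rIPCl and -0.03 in rIPCe, the latter being the difference of the 3 rIPCe arrays of slide 2 from control 5. With slide as a random block KCNA2 was not altered in either.

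KCNH6, a channel of the ether-a-go-go family, was at 1.78, 5.61, 1.69, 3.47 and 5.5 in the control group. All preconditioned arrays were dim, with 1.54, 1.43, 2.64, 1.62 and 1.77 in rIPCe and 1.62, 1.89, 1.49, 2.09 and 1.69 in rIPCl. The gene was well above background on 2 control arrays and on none of the others, so its difference rests on control 2 and control 5, with control 4 between. No fold change or bound is given for either group, since control 1, control 3 and control 4 were not well above background. Control 1 and control 3 (1.78 and 1.69) lay within the rIPCl range of 1.49 to 2.09. The rIPCl signals as measured differed by -1.86 (limma unadjusted p = 0.016, adjusted p = 0.103, exact permutation p = 0.0873). The rIPCe difference was -1.81, with a limma adjusted p of 0.264. These differences became -0.33 and -0.29 with normexp background correction, and -3.71 and -3.63 with slide as a block. Without control 2, or without control 5, KCNH6 was not altered in rIPCe.

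TRPC4, a receptor-operated cation channel, was the member that limma called. Its values were 2.17, 2.37, 2.07, 1.85 and 2.15 in the control group, 1.72, 1.74, 1.72, 1.7 and 1.69 in rIPCe and 1.78, 1.71, 1.66, 1.66 and 1.63 in rIPCl. All preconditioned arrays lay below all control arrays, a pattern found in 1 member in each comparison. Among all named genes, 6.99% lay wholly below the control group in rIPCl and 2.05% in rIPCe, while 3.84% and 0.464% lay wholly above it, as 0 members did. The mean signals were 2.12 ± 0.19 in the control group, 1.72 ± 0.02 in rIPCe and 1.69 ± 0.06 in rIPCl (SD, n = 5), with limma adjusted p of 0.177 in rIPCe and 0.027 in rIPCl. No spot of TRPC4 was well above background, so no group has a measured level and no difference or fold change is read from these signals. In rIPCl the limma adjusted p was 0.105 with normexp and 0.615 under the slide block, and without control 2, control 3, rIPCl 3, rIPCl 4 or rIPCl 5 it was 0.0547 to 0.0643.

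**Figure D3:**
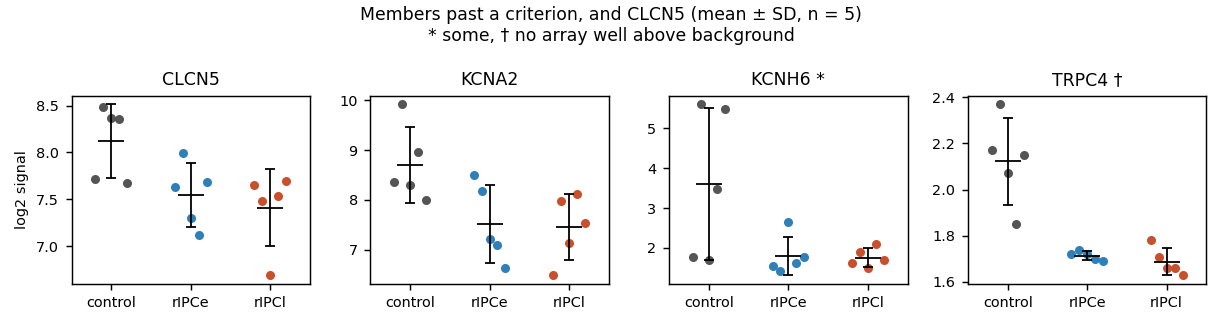
Log2 signal (vertical axis) by group (horizontal axis) for CLCN5, KCNA2, KCNH6 and TRPC4, with 1 point per array and bars for the mean ± SD (n = 5). KCNH6 is high on 2 control arrays and between on control 4, and the TRPC4 points span from 1.63 to 2.37, where no array was well above background.

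KCNA5, a voltage-gated channel of vascular smooth muscle and heart whose probe had the highest mean signal of its class, was at 10.3, 10.63, 10.37, 10.48 and 11.26 in the control group. It was at 11.25, 11.33, 11.06, 10.14 and 10.23 in rIPCe and at 10.26, 11.36, 11.21, 11.21 and 11.22 in rIPCl. All arrays of slide 1 (10.3 to 10.63) and slide 3 (10.14 to 10.26) lay below all arrays of slide 2 (11.06 to 11.33) and slide 4 (11.21 to 11.36). The group differences were 0.44 in rIPCl and 0.19 in rIPCe (limma adjusted p = 0.336 and 0.796), and 0.03 and -0.05 with slide as a block. The second probe for KCNA5 turned the other way, with slide 3 (8.04 to 8.69) above slide 2 (7.39 to 8.03).

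CACNA2D1, an accessory subunit of voltage-gated calcium channels whose probe had the highest mean signal of its class, had control signals of 8.98, 8.97, 8.96, 9.03 and 9.37. It read 9.37, 9.29, 9.43, 8.99 and 8.77 in rIPCe and 9.33, 9.25, 9.31, 9.42 and 9.29 in rIPCl. Control 1 to 4 lay within 0.07 of each other and control 5, on slide 2, was near the rIPCe arrays of that slide. The difference was 0.26 in rIPCl (limma 95% interval -0.02 to 0.54) and 0.11 in rIPCe, and the second probe gave 0.04 and 0.05.

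When slide was added to the limma fit beside group, its term had an adjusted p under 0.05 for 3 members, against 7.59% of all named genes. They were KCNA5 (limma adjusted p = 0.000336), CACNG1 (0.000619) and CACNA2D1 (0.0263). CACNG1, the gamma subunit of the calcium channel of skeletal muscle, was at 5.93 to 6.36 on slide 1, 6.55 to 6.8 on slide 2, 5.61 to 5.72 on slide 3 and 6.74 to 6.9 on slide 4. In 8 members the 3 arrays of slide 3 lay all above or all below the 4 arrays of slide 2, against 17.7% of all named genes. KCNA5, KCNJ5, CACNG1, KCNA2 and KCNMB1 were lower on slide 3, and SCNN1A, FXYD2 and KCNAB1 were higher. Each of these slides held 2 groups.

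**Figure D4:**
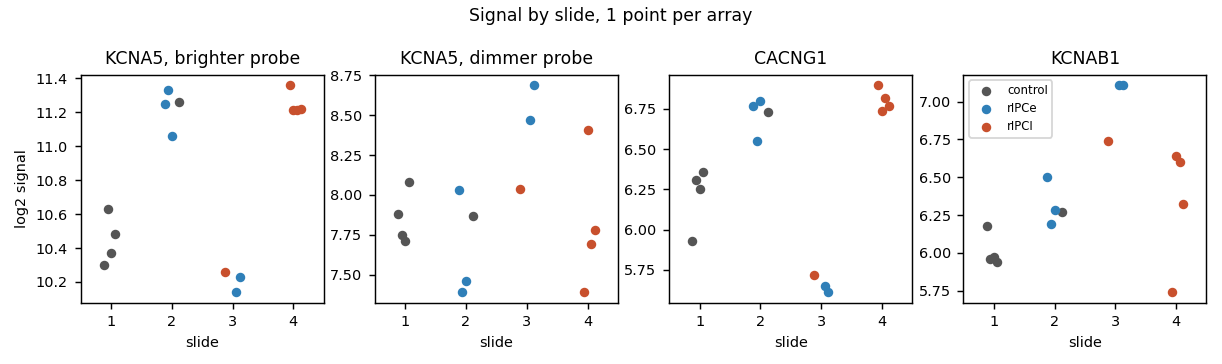
Log2 signal (vertical axis) against slide (horizontal axis) for both KCNA5 probes, CACNG1 and KCNAB1, with 1 point per array coloured by group. For the brighter KCNA5 probe and CACNG1, the rIPCe points of slide 3 lie with the rIPCl point of that slide and apart from the rIPCe points of slide 2. For the dimmer KCNA5 probe and KCNAB1, the rIPCl point of slide 3 lies between the rIPCe points of slide 2 and those of slide 3. The KCNA5 probes move in opposite directions between these slides.

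TRPV4, a calcium-permeable channel of the tubule that responds to swelling and flow, was at 9.88, 9.73, 10.23, 10.09 and 9.57 in the control group, 10.05, 10.23, 10.01, 10.06 and 9.83 in rIPCe and 10.33, 10.28, 9.67, 10.27 and 10.1 in rIPCl. The group ranges overlapped, though 3 of 5 rIPCl arrays lay above all control arrays. The difference was 0.23 in rIPCl (limma 95% interval -0.10 to 0.55) and 0.13 in rIPCe (limma 95% interval -0.19 to 0.46). TRPC1, the other TRP gene measured on every array, differed by -0.34 and -0.20, and its second probe by -0.24 and -0.13 (limma adjusted p of at least 0.418 for each).

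KCNMA1 and KCNMB1 encode the pore and the beta subunit of the large conductance, calcium-activated potassium channel, which secretes potassium in the distal nephron at high flow. The pore gene was at 2.65, 1.49, 1.46, 2.86 and 3.89 in the control group, 1.55, 1.62, 2.14, 3.15 and 2.8 in rIPCe and 3.44, 2.23, 2.81, 2.62 and 3.67 in rIPCl. It was well above background on 1 of the 15 arrays, and no change in its level is read from these signals. KCNMB1 was measured on every array and differed by 0.02 in rIPCl (limma 95% interval -0.58 to 0.62) and by -0.30 in rIPCe.

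The other potassium channel genes were KCNAB1, KCNE3, KCNG1, KCNIP1, KCNJ2, KCNJ5, KCNN3, KCNN4 and KCNS3, of which KCNJ2 and KCNN3 were well above background on 12 arrays each. On their brightest probes the differences ranged from -0.86 to 0.68 in rIPCl and from -0.69 to 0.57 in rIPCe, and limma called none after adjustment. KCNN4 differed by -0.05 and -0.04. Its dimmer probe, well above background on 7 arrays, had signal differences of 1.06 in rIPCl and 1.74 in rIPCe (limma adjusted p = 0.293 and 0.25). These are not measured fold changes. That probe, and genes with an unadjusted p under 0.05 on the brightest probe, are named here after their values were seen. KCNJ5, an inward rectifier opened by G proteins, was 0.43 higher in rIPCl (limma unadjusted p = 0.0106, adjusted p = 0.0831). The 4 rIPCl arrays of slide 4 lay above all control arrays, and rIPCl 1 on slide 3 did not. KCNG1, a silent subunit that modifies other channels, differed by -0.86 in rIPCl on its brighter probe (limma unadjusted p = 0.0186, adjusted p = 0.111), while its second probe differed by 0.00. KCNAB1, a beta subunit of voltage-gated channels, was 0.57 higher in rIPCe (limma unadjusted p = 0.0212, adjusted p = 0.276), and 2 of those 5 arrays, rIPCe 4 and rIPCe 5 on slide 3, both read 7.11. With slide as a block the differences were 0.47 for KCNJ5 and -0.35 for KCNG1 in rIPCl, and 0.05 for KCNAB1 in rIPCe.

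KCNE3 is an accessory subunit of potassium channels in epithelia and was measured with 4 probes. Its brightest probe gave 10.12, 9.44, 9.25, 9.39 and 9.29 in the control group, 10.59, 10.41, 10.35, 9.06 and 8.97 in rIPCe and 10.61, 9.56, 9.77, 10.81 and 10.13 in rIPCl. The rIPCe pigs fell into a high set of 3 and a low set of 2, which also lay on different slides, and control 1 and rIPCl 1 were high on slides where the rest were low. The difference was 0.68 in rIPCl and 0.38 in rIPCe (limma adjusted p = 0.232 and 0.649). With slide as a block it was 2.76 in rIPCl and 1.16 in rIPCe (limma adjusted p = 0.0727 and 0.271), past the 2-fold criterion in both. Another probe measured on every array differed by 0.19 in rIPCl, and the other 2 were well above background on 8 and 12 arrays. KCNE3 was chosen for its spread.

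CACNB4, a beta subunit of voltage-gated calcium channels, differed by 0.63 in rIPCl (limma adjusted p = 0.194), with rIPCl 3 at 8.47 and the other 4 rIPCl arrays at 7.12 to 7.51. Within groups, the pooled SD of the 22 members measured on every array ranged from 0.19 for CACNA2D1 to 0.74 for KCNA2, with a median of 0.42. Of these 22 members, the 95% interval of the difference from the control group lay inside a 2-fold change in either direction for 15 in rIPCl and for 17 in rIPCe.

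**Figure D5:**
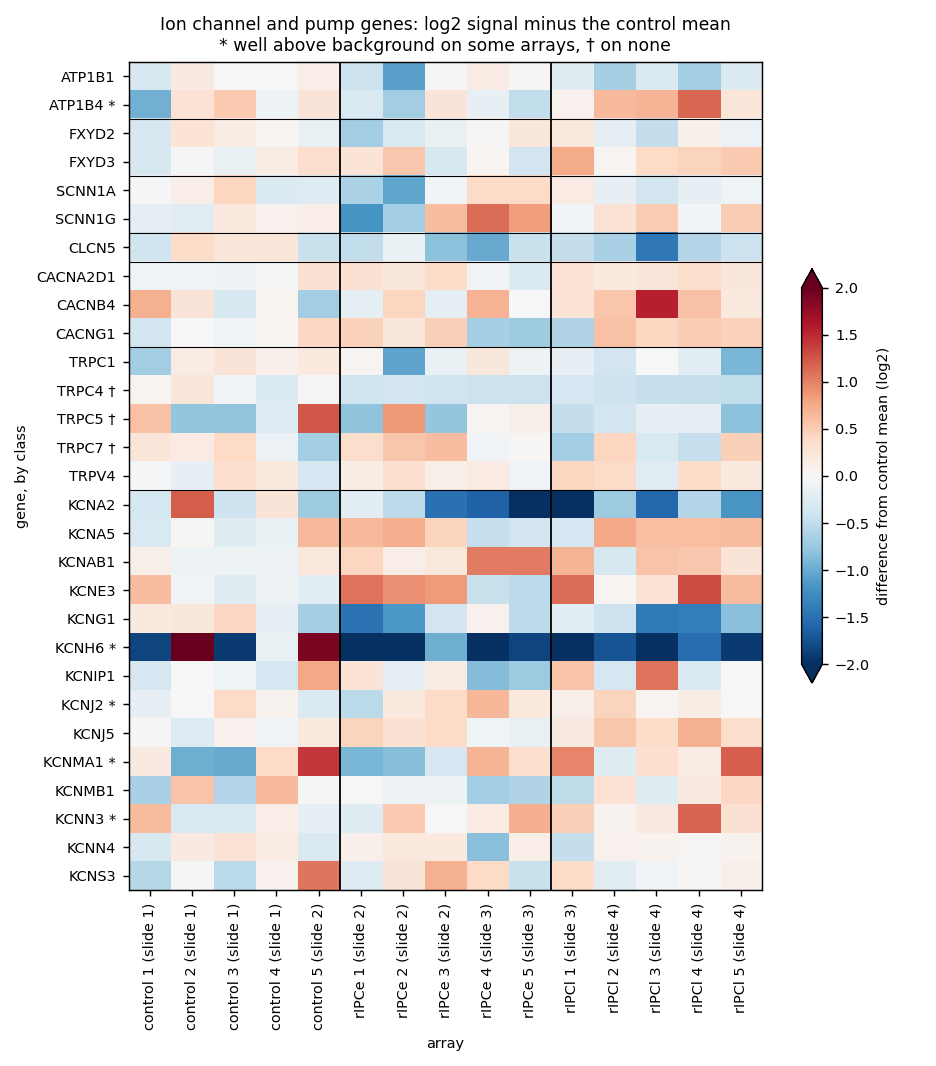
Log2 signal of 29 of the 32 genes (rows, by class) minus the gene's mean over the control arrays, for the 15 arrays (columns, with slide), from blue (lower) to red (higher), with the colour saturating at 2 in either direction. Few rows change colour at the group borders. KCNA2 and KCNH6 are mostly blue in rIPCe and rIPCl, with KCNH6 also blue on control 1 and control 3, SCNN1G and SCNN1A are blue on rIPCe 1 and rIPCe 2, and CACNG1 and KCNA5 change within rIPCe between slides 2 and 3.

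Between the preconditioned groups, 0 members were altered upward and 0 downward in rIPCl relative to rIPCe (0.629% and 0.199% of named genes were). Limma called 0 members and 0% of named genes, and 1 member, ATP1B4, had an unadjusted p under 0.05, against 4.74% of named genes. The differences ranged from -0.40 to 0.84 with a median of 0.07, beside 0.02 over all named genes. Both ends were signal differences of genes not well above background on all arrays, TRPC7 and ATP1B4. Among members measured on every array the differences ran from -0.23 (KCNAB1) to 0.49 (CACNB4). Of the 22 members measured on every array, 18 had a 95% interval inside a 2-fold change in either direction.

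Partners of these channels in the nephron (cotransporters, pumps, aquaporins, claudins and regulating kinases) were taken from a list of 58 genes, of which 30 were measured. In rIPCl, 21 were lower and 9 higher than in the control group, with a median difference of -0.28, while 1555 of all 3020 named genes were lower, with a median of -0.02. Limma called 3 of the 30, beside 9.5% of named genes, and 7 had an unadjusted p under 0.05, beside 35.1%. All of these were lower. In rIPCe, 25 of the 30 and 1625 of the 3020 were lower, with medians of -0.30 and -0.03, and limma called 0 of the list, while 3 had an unadjusted p under 0.05, beside 16.1% of named genes.

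SLC26A4 (pendrin), the chloride and bicarbonate exchanger of intercalated cells, showed the largest difference of the list. Its signals were 6.63, 6.68, 6.09, 7.17 and 7.08 in the control group, 4.95, 5.19, 5.12, 5.89 and 6.42 in rIPCe and 4.21, 4.95, 4.22, 5.35 and 3.59 in rIPCl. All rIPCl arrays lay below all control arrays, and it fell by 2.27 in rIPCl (SE 0.35, limma adjusted p = 0.0156, exact permutation p = 0.00794, the smallest that 5 against 5 arrays allow). In rIPCe the difference was -1.21 (limma adjusted p = 0.202). It was the single intercalated cell marker measured of 6 listed. The slide block gave -3.94 and -1.99, with limma adjusted p of 0.0592 and 0.125.

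SLC4A4, the basolateral sodium bicarbonate cotransporter of the proximal tubule, ranged over 10.86 to 12.67 on control arrays, 10.55 to 11.21 on rIPCe arrays and 9.91 to 11.16 on rIPCl arrays. Its groups overlapped slightly, and it fell by 1.13 in rIPCl (SE 0.30, limma adjusted p = 0.0433) and differed by -0.66 in rIPCe. ATP2B1, a calcium pump of the plasma membrane, was at 11.14 to 11.34 in the control group, at 10.69 to 11.01 in rIPCe and at 10.62 to 11.02 in rIPCl. Neither preconditioned group overlapped the control group. ATP2B1 fell by 0.39 in rIPCl (SE 0.10, limma adjusted p = 0.0359) and differed by -0.40 in rIPCe (limma adjusted p = 0.185). A slide term in the model, fixed or random, left none of SLC26A4, SLC4A4 and ATP2B1 called. In rIPCl SLC4A4 then differed by -1.57 (fixed) and -1.20 (random), and ATP2B1 by -0.13 and -0.36. The water channels AQP11 and AQP1 differed by -1 and -0.96 in rIPCl, the kinase SGK1, which raises ENaC activity, by -0.58, and CLDN10, a claudin of the thick ascending limb, by -0.44 (limma adjusted p of 0.0923 to 0.167 for these 4).

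Markers of other cell types stood beside these values. In rIPCl, where limma called 9.5% of named genes, macrophage markers had a median difference of 1.23, with 4 of 6 called, and T cell markers of 1.35, with 0 of 6 called. Control arrays had a mean macrophage marker signal of 9.69 to 10.91, rIPCe arrays of 10.2 to 11.13 and rIPCl arrays of 10.41 to 11.55. Markers of tubular injury had a median of 1.31 over 6 genes, 2 of them called, with mean signals of 11.16 to 13.28, 11.86 to 13.93 and 13.12 to 13.65. Fibroblast markers had medians of 0.96 in rIPCl, with LUM called of 3 genes, and 0.95 in rIPCe, with 0 called, and their mean signals were 11.46 to 12.36 in control, 11.92 to 13.62 in rIPCe and 12.23 to 13.52 in rIPCl arrays. Endothelial and smooth muscle markers, from the cells that hold several of the vascular channels, had medians of -0.03 and 0.17 in rIPCl and of -0.08 and -0.19 in rIPCe. The part of these cells in the channel values was not tested.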

How the data were processed

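Kidney RNA from 15 pigs was measured on Agilent arrays for pig with a single dye, 1 per animal. The authors deposited the scanner output of Agilent Feature Extraction 11.0.1.1, in which intensity is on a linear scale, corrected for background within each array and not normalized between arrays, and a table that equals its mean per probe for 100% of values (tolerance 0.001). Outlier spots (1 to 70 per array) were left out, the log2 signals were quantile normalized over the arrays, and limma 3.58.1 in R 4.3.3 was fitted to all 43603 probes with a mean per group. RefSeq accessions named 6686 of the 43603 probes (3020 genes). All other probes had no name, among them 8220 listed by Ensembl transcript. Exact permutation tests were two-sided over 252 assignments. Members with full values were those altered or called, nephron genes from a list, and the brightest of each class. Members and lists were chosen with earlier results of these data known. Replicate numbers did not pair arrays (15 correlations of deviations, -0.26 to 0.07). The number of arrays limits the precision. Each array is a different pig. Alternatives were other normalization and background settings, a filter on dim probes, slide and replicate blocks, other probe rules, the methods' t-test and leaving out each array. The code was tested on simulated data. Some members were counted in the totals but are not reported here by name.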

Additional observations from a re-analysis of the deposited data

Results flagged for a closer look

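In 11 of 96 sets of 5 arrays (32 genes in 3 groups), 1 array stood far from the others of its group by Dixon's gap test, which chance gives in about 1 in 20 sets. Low arrays were rIPCl 3 for CLCN5 (6.69, the nearest other at 7.48), rIPCl 1 for KCNA5 (10.26, nearest 11.21), rIPCl 1 for CACNG1 (5.72, nearest 6.74), rIPCe 4 for KCNN4 (4.65, nearest 5.58), rIPCl 1 for KCNN4 (5.01, nearest 5.51), control 1 for TRPC1 (7.78, nearest 8.58) and rIPCe 2 for TRPC1 (7.43, nearest 8.35). High arrays were rIPCe 3 for KCNH6 (2.64, nearest 1.77), control 1 for KCNE3 (10.12, nearest 9.44), control 5 for CACNA2D1 (9.37, nearest 9.03) and rIPCl 3 for CACNB4 (8.47, nearest 7.51). rIPCl 1 was the only rIPCl array on slide 3 and control 5 the only control array on slide 2.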

How the results depend on the processing

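In rIPCl, the 2 altered members became 1 with normexp on the median signal (chosen after the data were seen, since the mean signal was not used here), with only probes well above background, with slide as a block (KCNE3, not altered otherwise), with slide as a random block and with the methods' t-test. The 1 called member, TRPC4, became 4 with the 75th percentile subtracted (with CLCN5, KCNH6 and KCNJ5), 2 with a gene's probes averaged, a different 1 with normexp (CLCN5, limma adjusted p = 0.0497, while TRPC4 had 0.105), and 0 with only probes well above background, the replicate block or slide as a block or random block. In rIPCe, the 2 altered members became 1 with normexp, only probes well above background, slide as a random block and the methods' t-test, and 5 with slide as a block, and rIPCl against rIPCe gave 2 in place of 0 with slide as a block. Leaving out 1 array at a time gave 1 to 3 altered and 0 to 2 called members in rIPCl, and 0 to 2 altered in rIPCe. Without control 2, 1 member was altered in rIPCl and 0 in rIPCe. TRPC4 was not called without control 2, control 3, rIPCl 3, rIPCl 4 or rIPCl 5, KCNH6 was called without control 1 and CLCN5 without control 5. In rIPCe, 1 member was altered without control 5 or rIPCe 5. The cause was not tested.

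With slide as a block the direction turned for CLCN5 (0.22 in rIPCl), KCNMA1 (-1.65 in rIPCl, a signal difference of a gene well above background on 1 array), SCNN1G (-1.58 in rIPCl and -0.55 in rIPCe), CACNA2D1 (-0.01 in rIPCe) and KCNA5 (-0.05 in rIPCe). With slide as a random block SCNN1G was at 0.00 in rIPCl. With 1 array left out, KCNMA1 in rIPCe was 0.14 without control 5, SCNN1A in rIPCe 0.02 without rIPCe 2, SCNN1G in rIPCe -0.10 without rIPCe 4 and -0.03 without rIPCe 5, and FXYD2 in rIPCl 0.00 without rIPCl 3. The ends of these ranges on the other side were -0.47 for KCNMA1, -0.34 for SCNN1A, 0.47 for SCNN1G and -0.17 for FXYD2. Slide as a block moved the median difference of all named genes to 0.17 in rIPCl. The median difference over the members ran from -0.06 to 0.18 in rIPCl (highest with only probes well above background), from -0.18 to 0.00 in rIPCe and from -0.03 to 0.09 between them, beside an SD of 0.162 within groups for the median member signal of an array. The scanner's weaker detection mark held for 25 members on all arrays. The replicate block moved no other count. For 10 of the 32 members signal over background limited the comparison, since they were not well above it on all arrays.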
